A study of Homo sapiens with 12 samples.

Results

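Granta 519 is an established human cell line of mantle cell lymphoma (MCL), a tumour of mature B cells. The transcriptome described here is that of untreated Granta 519 cells, measured on 4 of the 12 Affymetrix Human Gene 1.0 ST arrays of the series. The members were the 4 arrays labelled untreated and all genes with a probe set that lists 1 gene symbol, which gave 18417 genes on 19460 of the 33297 probe sets. The other arrays fall into 2 groups of 4, in which the cells had received a control siRNA or SOX11 siRNA. Both siRNA groups came from 4000000 cells nucleofected with 100 pmol siRNA and harvested 20 hours later. All 3 groups were the same line grown in the same way, so each group is a single cell line and the replicates are 4 separate samples of it. Whether the untreated cells went through mock electroporation, and when they were harvested, was not given in the sources used here. Differences between untreated and transfected cells therefore cannot be told apart from effects of the transfection procedure or of time in culture.

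Most MCL carry the t(11;14) translocation, which places CCND1 under the control of the immunoglobulin heavy chain locus. Cyclin D1, absent from normal B cells, then drives the passage from G1 to S phase. Most MCL also express SOX11, a transcription factor of the SOXC group that normal lymphocytes lack. The cells otherwise keep the identity of a mature B cell, set by PAX5 and displayed by surface molecules such as CD20 (MS4A1) and the B cell receptor with its CD79A and CD79B chains.

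Signals are linear PLIER values per probe set. A gene was called above the reference when its signal exceeded, on all 4 untreated arrays, the 95th percentile of 457 probe sets of 3 families used in specialised tissues, namely 360 olfactory receptor, 24 bitter taste receptor and 73 keratin-associated protein genes. This reference level was 132.6, 137.5, 109.2 and 129.3 on replicates 1 to 4, while the median reference probe set lay between 20.6 and 23.7. By construction 5% of these reference genes lie above the level. Probes differ in how well they bind, so a rank is a rank of signals and not of mRNA amounts, and no ratio between genes is given.

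Of the 18417 genes, 8892 (48.3%) were above the reference on all 4 arrays, 1158 (6.29%) on some of them and 8367 (45.4%) on none. The mean signal had a median of 133.8, a 90th percentile of 888 and a 99th percentile of 3194. Protein-coding genes were above the reference in 50.7% of cases, long non-coding RNAs in 12.2% and microRNA genes in 10.4%. Signal was spread over many genes, since the 100 highest held 8.64% and the 1000 highest 37.2% of the sum. The arrays were close to each other, with pairwise Pearson correlations from 0.991 to 0.995 over all probe sets on the log2 scale. Their median signals were 88.98, 90.45, 81.08 and 85.58.

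**Figure D1:**
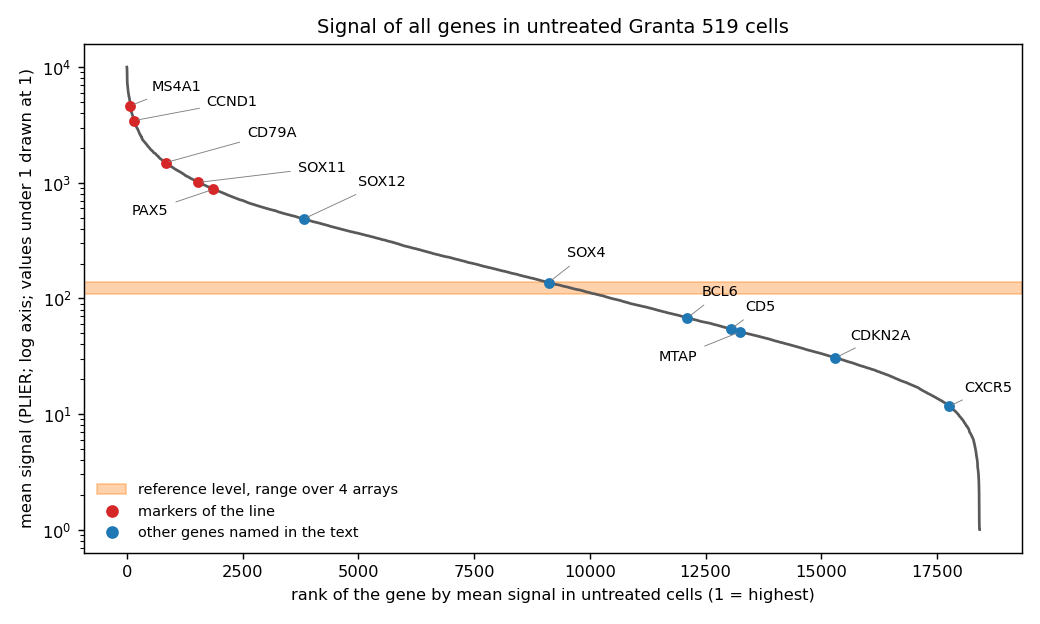
All 18417 genes by rank of mean signal over the 4 untreated arrays (x axis) against that signal on a log axis (y axis). The band is the reference level on the 4 arrays (109.2 to 137.5), red points are the 5 markers of the line and blue points other named genes. The 5 markers lie high on the curve, SOX4 lies at the band, and CD5, BCL6, MTAP, CDKN2A and CXCR5 below it.

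The highest signals came from genes of the translation machinery and the cytoskeleton. PTMA, which encodes prothymosin alpha, ranked first with 10804, 9483, 9644 and 10052 on replicates 1 to 4, followed by the elongation factor gene EEF1A1 with 10395, 9307, 9928 and 10261. Genes of ribosomal proteins filled 9 of the 20 highest places (RPS3, RPS2, RPS4X, RPS3A, RPL4, RPS25, RPL34, RPL18 and RPS16). All 57 measured genes of this class were above the reference, with a median of 5183 and the lowest signal, 255, for RPL22. The rest of the 20 held GAPDH, FAF2, the chaperone gene HSPA8, B2M, the tubulin gene TUBB, the actin genes ACTB and ACTG1, the histone gene H1-4 and the pseudogene RPL13AP5. Of these 20 genes, 17 were among the 20 highest on each single array. Many of them have near-identical copies in the genome, and 8 of the 20 have several probe sets, so their levels are uncertain. FAF2, for example, reached 8024 on one probe set and 1237 on the other, and the lowest probe sets of PTMA and RPL34 had means of 649 and 1045.

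The 5 genes that mark the line were all above the reference on all 4 arrays. MS4A1, which encodes CD20, gave 4658, 4147, 5071 and 4673 on replicates 1 to 4 and ranked 78 of 18417, above 99.6% of genes. CCND1 gave 3506, 3223, 3506 and 3567 and ranked 164. These signals varied little between arrays, with coefficients of variation of 8.16% and 4.48%. CD79A, a chain of the B cell receptor, gave 1624, 1390, 1506 and 1448 with rank 837. SOX11 gave 1028, 978, 978 and 1041 with rank 1543, above 91.6% of genes. PAX5, the factor that keeps B cell identity, gave 901, 876, 834 and 899.6 with rank 1869. The lowest of these 20 values, 834 for PAX5 on replicate 3, was still over the highest reference level of 137.5. On these 5 markers the data did not go against the label, although MS4A1, CD79A and PAX5 mark mature B cells in general. CD5, which MCL cells typically carry, was below the reference on all 4 arrays.

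Most surface molecules of mature B cells were above the reference, 24 of 30 measured against 48.3% of all genes, with a median signal of 533. Besides MS4A1 and CD79A, the receptor for the survival factor BAFF, TNFRSF13C, gave 1659, 1589, 1657 and 1581, and CD81, a partner of the B cell co-receptor, had a mean of 1541 ± 73.8 (SD, n = 4). FCER2, which encodes the low-affinity IgE receptor CD23, gave 1419, 1266, 1349 and 1390. Its rank among all genes was 992. CD24, a small glycoprotein of B cells, gave 1209, 1177, 1402 and 1238, and CD70 and CD180 had means of 1071 and 1067. CD5, the T cell molecule that MCL cells typically carry, gave 54.2, 52.2, 54.0 and 56.5 and was below the reference on all 4 arrays. Its 4 values lay close together, within 52.2 to 56.5. Also below it were ROR1, a receptor found on many B cell tumours, with a mean of 91.5, and the Fc receptor-like genes FCRL1, FCRL2 and FCRL4, with 49.2, 56.1 and 86.6. CD86, a co-stimulatory ligand, exceeded it on 3 arrays with 140.4, 131, 182 and 165. List genes with no probe set that lists 1 symbol were not analysed here.

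Transcription factors of the B lineage were above the reference in 14 of 18 cases, with a median of 511. ETS1 gave 1672, 1422, 1345 and 1394, IRF8 had a mean of 1378 ± 78.0 and TCF4, an E protein, a mean of 1238 ± 65.7 (SD, n = 4). IKZF3 and IKZF1, the zinc finger factors Aiolos and Ikaros, had means of 1042 and 705. At the other end, BACH2, which restrains plasma cell differentiation, gave 77.0, 71.3, 70.2 and 71.4, and FOXP1 gave 121, 116, 107 and 107. Both were below the reference on every array. FOXP1 lay above the median signal of all probe sets on each array, so its call depends on the reference chosen. The myeloid and B cell factor gene SPI1 and the octamer factor gene POU2F2 crossed the reference on 2 and 3 arrays.

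Markers of differentiation stages were unevenly represented. All 8 plasma cell genes were above the reference, with a median of 769. JCHAIN, which joins immunoglobulin polymers, gave 2195, 2107, 1830 and 1780, the factor gene IRF4 gave 1906, 1820, 1751 and 1782 and the secretory factor gene XBP1 gave 2161, 1807, 1469 and 1488. XBP1 was highest on replicate 1 and lowest on replicate 3. MZB1, SDC1 (CD138) and PRDM1 (BLIMP1) had means of 1002, 535 and 229. Of 7 germinal centre genes, 2 were above the reference, GCSAM with 1832, 1667, 1785 and 1839 and MYBL1 with a mean of 263. BCL6, the master regulator of the germinal centre, gave 66.7, 64.9, 66.6 and 73.2, and MME, which encodes CD10, gave 44.5, 47.5, 47.0 and 48.5. Both were below the reference on every array.

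Genes of B cell precursors were mostly low, with 2 of 10 above the reference and a median of 26.0. RAG1 and RAG2, which cut DNA in immunoglobulin rearrangement, had means of 24.5 and 14.1, and VPREB1 a mean of 46.6. DNTT, the terminal transferase that adds nucleotides at those joints, gave 355, 325, 292 and 298 and was above the reference on all 4 arrays. IGLL1 gave 572, 576, 519.5 and 557, but it shares sequence with the constant region of the lambda light chain, and signal from the 2 cannot be told apart. Of the immunoglobulin genes, IGKC had probe sets with this symbol alone, and 9 of its 13 were above the reference. Its highest probe set gave 302, 278, 259 and 227.

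The signalling chain below the B cell receptor was above the reference in 20 of 24 genes, with a median of 520.3. PLCG2, the phospholipase that BTK activates, gave 4193, 3586, 4240 and 4076 and ranked 104 among all genes, although its other probe set had a mean of 746. The adaptor gene BLNK gave 1483, 1438, 1453 and 1532. The kinase genes BLK, LYN and BTK had means of 1216, 1197 ± 48.1 and 1005 ± 61.1 (SD, n = 4), with BTK at 1094, 974, 992 and 959 on the 4 arrays. SYK, which starts the cascade, gave 1064, 1039, 916 and 965 with rank 1570, next to rank 1545 of BTK. The 4 genes below the reference were FYN, LAT, BANK1 and ZAP70, of which LAT and ZAP70 serve the T cell receptor. ZAP70 gave 76.4, 87.2, 61.4 and 64.8.

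**Figure D2:**
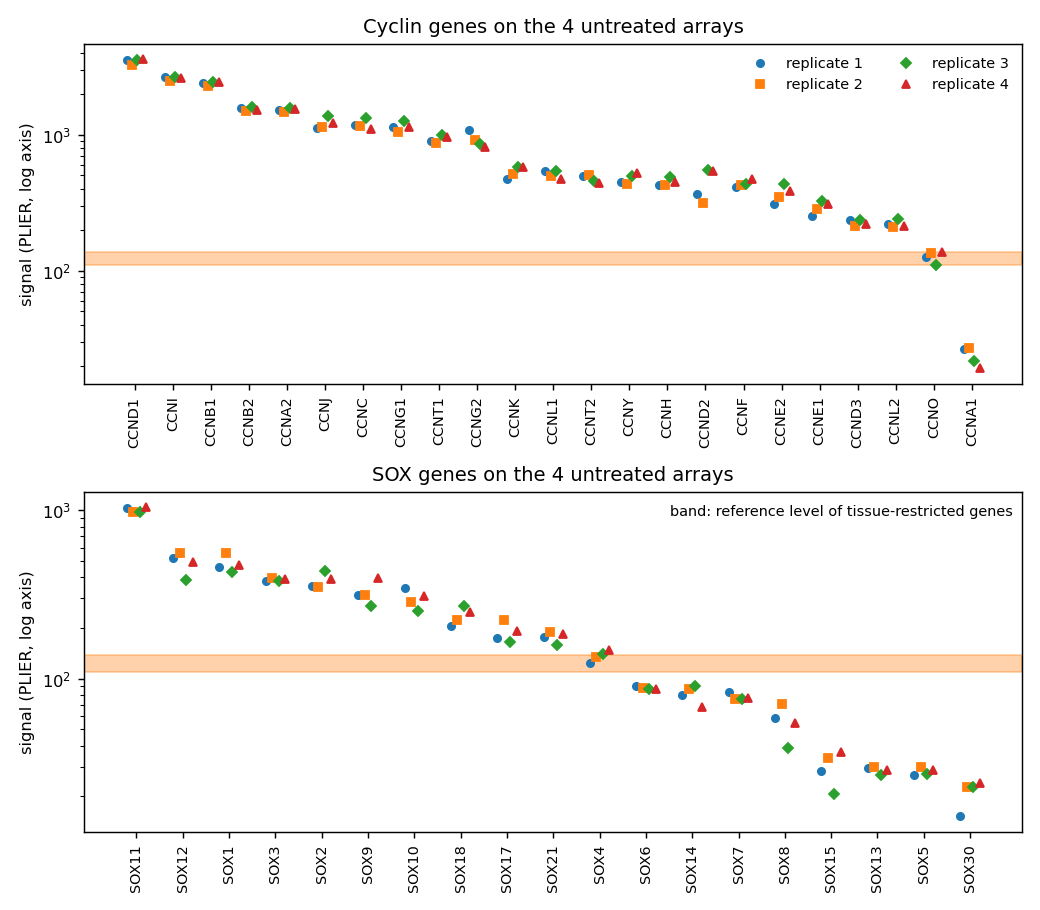
Signal on each of the 4 untreated arrays (y axis, log scale) for 23 cyclin genes and 19 SOX genes ordered by mean signal (x axis). The band is the range of the reference level, 109.2 to 137.5. CCND1 and SOX11 stand first in their families, and the arrays overlap closely except for genes such as CCND2.

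Among the cyclins, 21 of 23 genes were above the reference, with a median of 511. CCND1 ranked first in the family. Of the other D-type cyclins, which serve normal B cells in its place, CCND2 gave 363, 312, 553 and 536 with rank 4212 and CCND3 gave 236, 213, 234 and 219 with rank 6978. CCND2 stood apart by its spread, since replicates 3 and 4 lay above replicates 1 and 2 (coefficient of variation 27.6%). The mitotic cyclin gene CCNB1 gave 2385, 2257, 2434 and 2447, with CCNB2 and CCNA2 at means of 1543 and 1521. The G1/S cyclin genes CCNE1 and CCNE2 had means of 292 ± 32.0 and 368 ± 54.3 (SD, n = 4). CCNA1, a germline cyclin, was below the reference on every array with a mean of 23.6.

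The kinases that cyclins activate were above the reference in 8 of 8 genes. CDK4, the partner of cyclin D1, gave 3096, 2712, 3028 and 2884 and ranked 227. CDK6, the alternative partner, gave 285, 296, 257 and 236 and ranked 6251. CDK1 and CDK2 had means of 1276 and 943. All 13 genes of the RB and E2F list were above the reference. TFDP1, the dimer partner of E2F, had the highest signal with a mean of 2439. RB1, the pocket protein that cyclin D1 and CDK4 inactivate, gave 1303, 1373, 1399 and 1326, and E2F1 gave 192, 190.0, 195 and 194, with a coefficient of variation of 1.06%. Arrays thus hardly differed in either gene. The 21 proliferation genes were also all above, with a median of 1589, and the median member lay above 95.9% of genes. MCM7 and PCNA, of the replication fork, gave 2935, 2759, 2839 and 3021 and 2419, 2281, 2586 and 2662.

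The inhibitors of these kinases were above the reference in 6 of 7 genes, and the exception was CDKN2A. CDKN2A encodes p16INK4A, which blocks CDK4, and p14ARF. It gave 31.3, 32.0, 33.2 and 26.1. Its neighbour CDKN2B, which encodes the related inhibitor p15, gave 372, 348, 311 and 365 and was above the reference on all 4 arrays. CDKN3, a phosphatase that acts on CDK2, had a mean of 964 ± 57.8. CDKN1C (p57), CDKN1B (p27), CDKN2D (p19) and CDKN1A (p21) had means of 658 ± 16.1, 572, 553 ± 78.1 and 443 ± 20.8 (SD, n = 4).

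CDKN2A and MTAP lie next to each other on chromosome 9 and are often lost together in lymphomas, so their neighbours were read in gene order. MTAP, a methionine salvage enzyme gene, gave 63.8, 50.4, 39.5 and 52.1 and was below the reference on every array. From MLLT3 to ELAVL2, 23 genes had a probe set, of which 3 were above the reference on all 4 arrays and 19 on none. Of all genes, 48.3% were above it on all 4 arrays and 45.4% on none. The 3 were MLLT3 at one end, with a mean of 212 ± 12.2, FOCAD next to it, with 421 ± 17.4, and CDKN2B near the other end, with 349 ± 27.2 (SD, n = 4). The genes between FOCAD and MTAP include the type I interferon cluster, whose members are not transcribed in most unstimulated cells. Most of the 19 are interferon genes of this cluster, so nothing is read from the count. HACD4, beside FOCAD, exceeded the reference on 3 arrays with 156, 136, 158 and 146. KLHL9, which lies inside that cluster, had a mean of 38.4. The order and the neighbours were taken from the RefSeq gene table (GRCh38.p14), and DNA copy number was not measured.

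In the SOX family 10 of 19 genes were above the reference (52.6%), close to the 48.3% of all genes, with a median of 177. SOX11 ranked first of the 19 on all 4 arrays. Of the other SOXC genes, SOX12 gave 519.6, 555, 384 and 489.7, and SOX4, the member present in normal lymphocytes, gave 124, 134, 141 and 148 and crossed the reference on replicates 3 and 4 alone. The SOXB1 genes SOX1, SOX2 and SOX3, known from embryonic and neural stem cells, had means of 479 ± 54.2, 384 ± 40.5 and 386 ± 9.13 (SD, n = 4). SOX9 and SOX10 followed with 323 and 297. Among the 9 members not above the reference on all arrays, SOX5 and SOX30 were the lowest with means of 28.1 and 21.1. The SOX genes share a conserved HMG box, and probes to it could read more than 1 member.

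**Figure D3:**
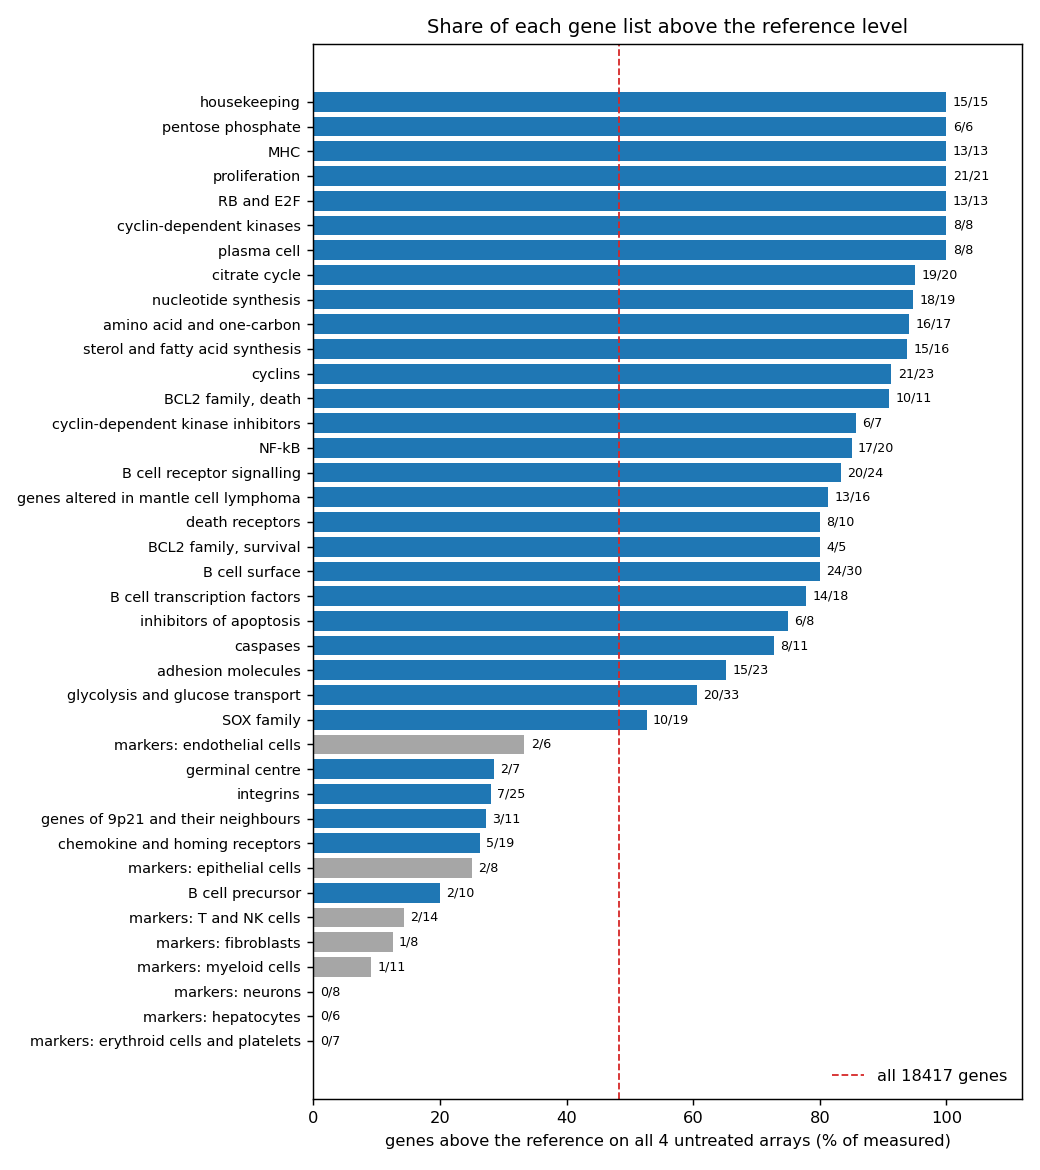
Percentage of the measured genes of each list that were above the reference on all 4 untreated arrays (x axis), with the counts beside the bars. Blue bars are lists of the line's own biology, grey bars markers of other cell types, and the dashed line marks 48.3% of all 18417 genes. Proliferation, plasma cell and pentose phosphate genes reach 100%, glycolysis 60.6%, and markers of other cell types between 0% and 33.3%.

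Genes that hold off apoptosis were largely above the reference. BCL2, the founding member of its family, gave 2331, 2013, 1993 and 2087 and ranked 439. MCL1, which has a short-lived protein, gave 1333, 1373, 1509 and 1506. BCL2A1 and BCL2L1 (BCL-XL) had means of 534 ± 47.2 and 521 ± 40.3 (SD, n = 4), and BCL2L10, an oocyte member, was below the reference on every array at 42.3. Of the 11 genes that promote death, 10 were above the reference. PMAIP1 (NOXA), which binds the MCL1 protein, gave 3302, 2785, 2570 and 2505, the highest signal of this list and highest on replicate 1. BID and HRK had means of 728 and 638, BCL2L11 (BIM) and BBC3 (PUMA) means of 194 and 171, and BMF was below the reference on every array at 108.

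Executioners and receptors of apoptosis showed the same mixture. Of 11 genes of the caspase list 8 were above the reference, led by the cytochrome c gene CYCS with a mean of 1239, and CASP5, CASP10 and CASP14 were below with means of 75.7, 64.4 and 18.8. Of 8 inhibitors of apoptosis 6 were above, with BIRC6 at 870.5 and XIAP at 312. BIRC5 (survivin) reached 851 on one probe set, while the other, at 60.04, was below the reference. Of 10 death receptor genes 8 were above, with the adaptor gene FADD at 1268 and FAS at 469, 446, 694 and 612. The ligand genes TNFSF10 (TRAIL) and FASLG were below the reference with means of 67.0 and 48.6.

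NF-kB genes were above the reference in 17 of 20 cases, with a median of 399. The chemokine gene CCL3, a target of the pathway in activated B cells, gave 3687, 3010, 3081 and 2847 and ranked 191. The inhibitor gene NFKBIA gave 1470, 1291, 1468 and 1434, NFKB1 a mean of 1126 ± 85.6 and the deubiquitinase gene TNFAIP3 (A20) a mean of 1002 ± 37.6 (SD, n = 4). TRAF1, BCL3 and IKBKG were below the reference, with means of 83.9, 79.4 and 62.4.

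Integrin genes and chemokine and homing receptor genes were above the reference in 28.0% and 26.3% of cases, against 48.3% of all genes. Other adhesion molecules were above it in 65.2%. Of 25 integrin genes 7 were above the reference (median 90.4). ITGB1 gave 1097, 1046, 1110 and 1024 and ITGA4 gave 945, 900.2, 1040 and 921, which together form VLA-4, and ITGB7, the partner of ITGA4 in homing to gut, gave 496, 458, 416 and 436. VCAM1, the ligand of VLA-4 on stroma, had a mean of 44.9, below the reference on every array. Of 23 other adhesion molecules 15 were above, with CD47, CD48 and CD99 at means of 2233, 1615 and 1481. The selectin genes SELE and SELP of vessel wall and platelets had means of 14.4 and 18.3.

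Of 19 chemokine and homing receptor genes, 5 were above the reference. CCR7, which guides lymphocytes into lymph nodes, gave 1205, 1011, 1490 and 1504. CXCR4, the receptor for CXCL12 of the stroma, gave 1175, 1029, 1272 and 1157, and GPR183 (EBI2), which positions B cells within follicles, gave 1125, 1049, 1325 and 1308. All 3 were lowest on replicate 2. The sphingosine phosphate receptor genes S1PR1 and S1PR2, which steer exit from and retention in follicles, exceeded the reference on 2 and 3 arrays with means of 128 and 139.9. S1PR4 and CCR10 had means of 260.2 and 250.5. CXCR5, the receptor that brings B cells to follicles, was at the bottom of the list with 9.78, 13.7, 9.55 and 13.8, and 3.55% of genes ranked lower.

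All 13 measured genes of antigen presentation were above the reference. The class II genes HLA-DPA1 and HLA-DPB1 had means of 6366 and 3206 (1860 on the lowest probe set of HLA-DPB1), and B2M, the light chain of class I, one of 7378. CIITA, the activator of class II genes, gave 227, 210.2, 207 and 232, the lowest signal of the list.

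Metabolic lists held isoforms above and isoforms below the reference. In glycolysis 20 of 33 genes were above. GAPDH gave 9696, 8620, 9062 and 9466 and ranked 5, and the lactate dehydrogenase genes LDHB and LDHA gave 6411, 5801, 6398 and 6544 and 6381, 5861, 6526 and 6347. Both ranked among the 100 highest genes. Hexokinase 2 (HK2) and the glucose transporter gene SLC2A1 had means of 710.5 and 782. The genes below were isoforms of liver, muscle or testis, such as the glucose transporter gene SLC2A2, the fructose bisphosphatase gene FBP2, PGK2 and the glucose 6-phosphatase gene G6PC1, whose means lay between 19.9 and 25.9.

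The other metabolic lists were above the reference almost throughout. This held for 6 of 6 pentose phosphate genes, 19 of 20 citrate cycle genes, 15 of 16 of sterol and fatty acid synthesis, 18 of 19 of nucleotide synthesis and 16 of 17 of amino acid and one-carbon metabolism. PGD, of the pentose phosphate pathway, had a mean of 2888 ± 181, the mitochondrial malate dehydrogenase gene MDH2 one of 3886 ± 212 and the purine enzyme gene ATIC one of 2404 ± 64.7 (SD, n = 4). HMGCS1 and SQLE, of cholesterol synthesis, had means of 1974 and 1798. ODC1, the first enzyme of polyamine synthesis, gave 5126, 4681, 5145 and 5105 and ranked 67. The exceptions were isoforms: PDHA2 of testis at 52.9, ACACB of muscle at 34.0 and ADSS1 of muscle at 92.4 were below the reference on every array, and SHMT1 exceeded it on 2.

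Markers of 8 other cell types, 68 measured genes, were above the reference in 8 cases (11.8%), with a median of 55.7. The 8 were CDH5 with 564, 499.8, 503 and 492, PECAM1 with a mean of 335, KRT8, CD28, KRT14, ELANE, COL1A1 and CD7. PECAM1 had a further probe set at 2.97. Other defining markers were below the reference on every array, such as CD3D of T cells at 31.0, LYZ of myeloid cells at 22.6, EPCAM of epithelium at 29.1, ALB of liver at 61.3 and HBB of erythroid cells at 17.6. The summed signal of the 14 T and NK cell genes ranged from 993 to 1182 in untreated cells. It was 951 to 1107 with control siRNA and 825 to 1120 with SOX11 siRNA, and the sums were not tested. Gene by gene, none of the 8 lists had a call against control siRNA, where 0.387% of all probe sets were called. Against SOX11 siRNA the share over all probe sets was 2.4%, and nothing is read from the number of calls in these lists. There PRF1 was higher in untreated cells (log2 difference 0.43, limma adjusted p = 0.0322). The epithelial gene KRT18 was lower (-0.57, limma adjusted p = 0.0203). The part of these genes in other differences between groups was not tested. In bulk RNA, fewer cells of a type and less RNA per cell cannot be told apart.

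Over all probe sets the median SD of log2(signal + 16) was 0.12 in untreated cells, 0.14 with control siRNA and 0.18 with SOX11 siRNA, and over the genes above the reference 0.09, 0.13 and 0.17. Over genes above it on no untreated array the order of the first 2 groups turned, with 0.134, 0.131 and 0.182. Both sets of genes were picked on the untreated arrays alone. The 90th percentiles over all probe sets were 0.26, 0.254 and 0.328. These are descriptions with no test. The coefficient of variation depended on signal, with a median of 17.1% among the 25% of genes with the lowest signals and 5.88% among the 25% with the highest. Replicate 2 was the lowest array for 43.8% of the 8891 genes above the reference that were compared, and replicate 3 the highest for 38.0%.

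A small set of genes varied far more. Of those genes, 71 (0.799%) had an SD over 0.3. CHAC1, a glutathione-degrading enzyme gene, led with 886, 703, 192 and 329 on replicates 1 to 4, an SD of 0.97. SLC7A11, the cystine transporter, gave 1292, 928, 402 and 548 (SD 0.74), and SESN2, a stress sensor, gave 756, 516, 252 and 357 (SD 0.66). In all 3 replicate 1 was highest, then replicates 2, 4 and 3. The same order held for VLDLR, the serine synthesis gene PSAT1, CEBPB, DDIT4 and DNASE2, with SDs from 0.51 to 0.62. GPR52 and NLGN2 completed the 10 with another order, although replicate 3 was lowest in both.

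Several of these genes answer to ATF4, the factor that cells raise when amino acids run short, and the panel of amino acid and one-carbon genes had the highest median SD of all panels, 0.32 against 0.09 for all genes above the reference. A list of 35 ATF4 and amino acid response genes was drawn up after these values were seen, and nothing was tested with it. Of its 34 measured genes 29 were above the reference, with a median SD of 0.33 in untreated cells, 0.17 with control siRNA and 0.20 with SOX11 siRNA. Replicate 1 was highest in 29 of 29, and the full order of replicates 1, 2, 4 and 3 held in 24, against 5.66% of all genes above the reference. ASNS, asparagine synthetase, gave 1835, 1374, 943 and 1091, and the amino acid transporter gene SLC7A5 gave 2063, 1545, 1149 and 1316. The genes share their arrays, so these counts describe 1 difference between 4 samples. How the 4 cultures differed was not given in the sources used here.

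**Figure D4:**
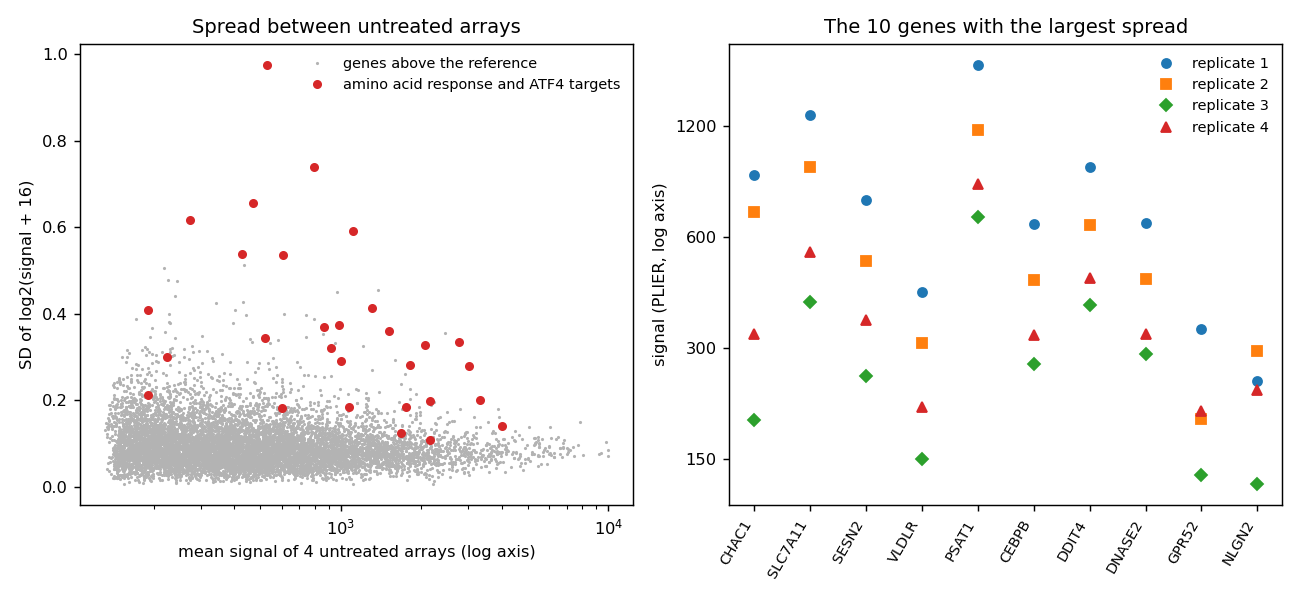
Left, SD of log2(signal + 16) over the 4 untreated arrays (y axis) against mean signal (x axis, log scale) for genes above the reference, with 29 amino acid response genes in red. Right, signal on each untreated array (y axis, log scale) of the 10 genes with the largest SD, where replicate 1 is highest in 9 and replicate 3 lowest in all 10.

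Levels in untreated cells were next compared with those in cells nucleofected with control siRNA, to see which genes of these lists differ once cells are transfected. By limma over all 33297 probe sets, 72 (0.216%) were higher and 57 (0.171%) lower in untreated cells at an adjusted p under 0.05, 129 (0.387%) in all. The counts depended on single arrays, with 29 to 46 higher and 33 to 45 lower when any 1 untreated or control siRNA array was left out (29 and 45 without control siRNA replicate 4). Without SOX11 siRNA replicate 3, which enters only through the shared spread, they were 142 and 90. Of 531 measured genes in the lists, 6 were higher and 2 lower. The 8 are 1.51% against 0.387% of all probe sets, and both shares rest on the same arrays. Nothing is read from the 2 shares, since the lists were chosen with earlier results of these data known. The sets are also unlike, as 358 of the 531 list genes were above the reference and 12083 of the 33297 probe sets list no symbol. The split depended on scaling, since 55.8% of calls were higher in untreated cells, against 45.3% after quantile normalization (292 higher, 352 lower) and 30.8% after centring each array on its median, which moved the median log2 difference of all genes by -0.08 here and by -0.10 against SOX11 siRNA. Ranks were nearly the same, with a Spearman correlation of the group means of 0.997 across genes, which are not independent replicates.

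Of the B cell genes, CR2, CD22, CD200 and DNTT were higher in untreated cells. CR2, the complement receptor CD21, gave 459.9, 434, 534 and 507 in untreated cells against 237 to 287 with control siRNA, a log2 difference of 0.87 ± 0.10 (SE; adjusted p = 0.00091, limma). DNTT gave 355, 325, 292 and 298 against 111 to 159, a log2 difference of 1.18 ± 0.15 (adjusted p = 0.00232, limma). CD22, an inhibitory co-receptor, gave 975, 879.9, 934 and 985 against 618 to 674 (log2 difference 0.53, limma adjusted p = 0.0169). The groups did not overlap for any of these 3, which adds nothing to the test, since it picked the genes on the same arrays. CD200, an inhibitory ligand, had a log2 difference of 0.54 (limma adjusted p = 0.0299). FCRL4, a receptor of memory B cells, went the other way, at 81.9, 92.5, 100.0 and 72.0 in untreated cells and 166 to 209 with control siRNA (log2 difference -0.97 ± 0.12, limma adjusted p = 0.00184). It was thus below the reference on every untreated array.

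In the metabolic lists FDPS, which makes farnesyl diphosphate, and SCD, the stearoyl-CoA desaturase, were higher in untreated cells, with log2 differences of 0.60 and 0.54 (limma adjusted p = 0.0148 and 0.0387). The sterol and fatty acid list had a median log2 difference of 0.24 over its 16 genes, against 0.06 over all genes. Its summed signal was 11737 to 14194 on the untreated arrays, 9105 to 10999 with control siRNA and 9183 to 11480 with SOX11 siRNA. The sums were not tested. Untreated sums also lay above those of both siRNA groups in other lists, such as the germinal centre genes. TNFRSF10D, a decoy receptor for TRAIL, was lower, with 289.7, 285, 374 and 336 against 432 to 606 (log2 difference -0.70, limma adjusted p = 0.0326). CCND1 and SOX11 did not pass the test, with log2 differences of 0.07 ± 0.10 and -0.13 ± 0.09 (SE, limma adjusted p = 0.888 and 0.757). The calls of CR2 and FCRL4 held in 22 of 22 alternative settings and that of DNTT in 21. CD22 and FDPS held in 16 and 14 and were each lost without untreated replicate 1, 3 or 4 or control siRNA replicate 3 or 4. TNFRSF10D held in 14 and was lost without untreated replicate 1, 2 or 4 or control siRNA replicate 1, 2 or 3. CD200 and SCD held in 11 and 10, lost without any single control siRNA array or untreated replicate 1, 3 or 4, and for SCD also without untreated replicate 2. The highest adjusted p values of these 5 genes over the settings were 0.0798, 0.0717, 0.164, 0.112 and 0.132.

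**Figure D5:**
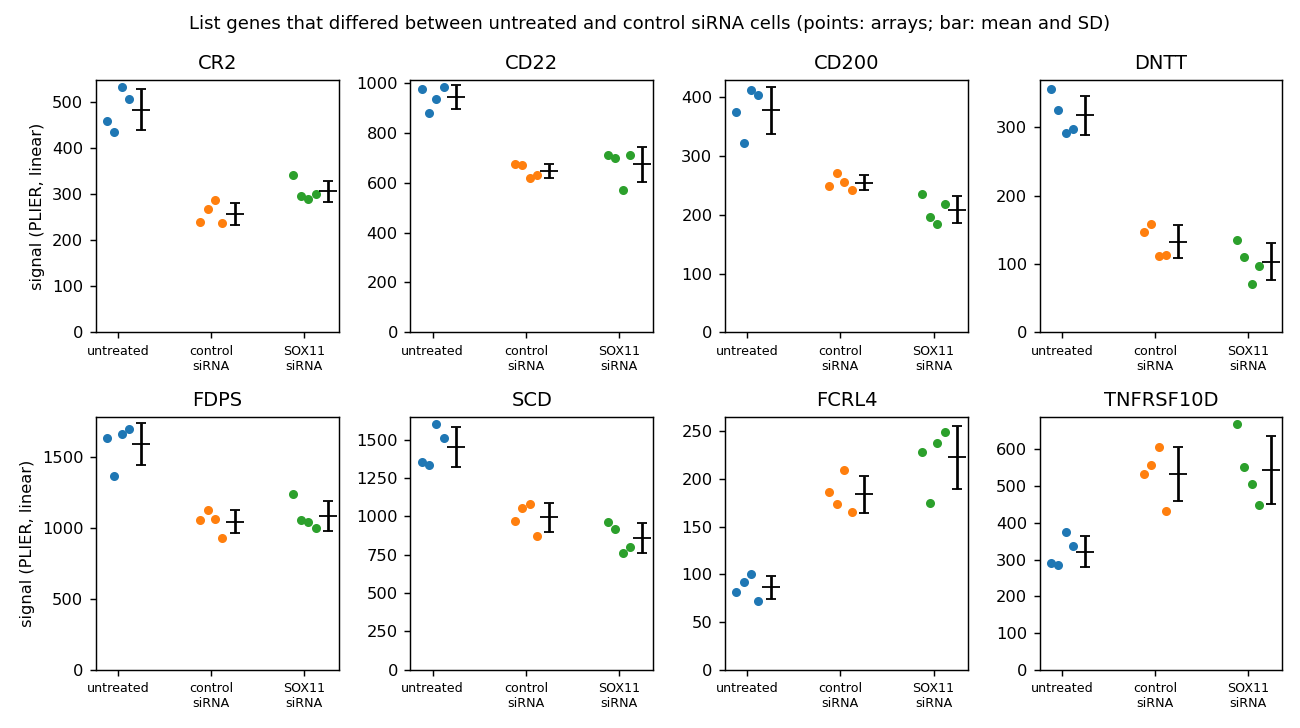
Signal on each array (points; y axis, linear from 0) in the 3 groups (x axis, 4 arrays each) for the 8 list genes that differed between untreated and control siRNA cells, with mean and SD beside them. In 6 genes all untreated points lie above those of the control siRNA group, and in FCRL4 and TNFRSF10D below. The test picked these genes on the same arrays, so the separation is no further support.

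Among the genes that passed the test, the largest differences from control siRNA were lower signals of GPNMB, AHNAK, PLK2, HMOX1 and DHRS2 and higher signals of CHAC1, DNTT, LMO3, CR2 and the pseudogene ZNF788P in untreated cells. GPNMB, a glycoprotein of phagocytes and melanocytes, gave 22.4, 28.5, 41.1 and 38.6 in untreated cells, below the reference, and 139 to 215 with control siRNA (log2 difference -1.97 ± 0.14, limma adjusted p = 1.21e-05). HMOX1, the heme oxygenase of the oxidative stress response, gave 129, 137, 118 and 133 against 242 to 329.9 (log2 difference -1.03, limma adjusted p = 0.00091). CHAC1 lay between 93.7 and 117 with control siRNA, under all 4 untreated values (log2 difference 1.98 ± 0.32, limma adjusted p = 0.0104), and was itself the gene that varied most among untreated arrays. Its call was lost in 3 of 22 settings, namely log2(value + 1), the analysis of variance and a trended robust prior, with an adjusted p of up to 0.163. LMO3 gave 557, 511, 518 and 501 against 214 to 288 (log2 difference 0.96, limma adjusted p = 0.00045). Chaperones of the endoplasmic reticulum, a list of 14 drawn up after values were seen, had a median log2 difference of -0.38 against control siRNA with 2 members called (0.387% of all probe sets), and of -0.50 against SOX11 siRNA with 9 called (2.4%). Nothing is read from these counts, since the list was chosen on these values. HSPA5 (BiP), its best known member, was called against control siRNA at -0.72 (limma adjusted p = 0.0117), and the call was lost without untreated replicate 1 or 2, with an adjusted p of up to 0.086 over all settings.

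Against SOX11 siRNA, which shares the untreated arrays with the comparison above, 532 probe sets (1.6%) were higher and 268 (0.805%) lower in untreated cells, 800 (2.4%) in all by limma. Without SOX11 siRNA replicate 3 they were 397 and 782, and without any 1 untreated array they were 245 to 333 and 109 to 183. After quantile normalization and centring 46.8% and 29.0% of calls were higher, against 66.5%. Of the 531 list genes 24 were higher and 11 lower (6.59%), a share with the same limits as that against control siRNA. SOX11, the targeted gene, had the largest positive log2 difference among the calls, 2.14 ± 0.09 (limma adjusted p = 4.24e-09), and lay between 188 and 229 on the siRNA arrays. GPNMB had the largest negative one, -2.15 ± 0.14 (limma adjusted p = 1.1e-06). The other 18 SOX genes did not pass the test.

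The list genes with the next largest differences were DNTT (1.51), FCRL4 (-1.22) and CD24. CD24 gave 1209, 1177, 1402 and 1238 in untreated cells, 1111 to 1535 with control siRNA and 524 to 741 with SOX11 siRNA. Its log2 difference from SOX11 siRNA was 1.02 ± 0.12 (limma adjusted p = 0.000296) and from control siRNA -0.06 (limma adjusted p = 0.934). Cell cycle genes among the calls were CCNG2, TFDP2, E2F1 and MKI67, all higher in untreated cells. Their log2 differences were 0.80, 0.89, 0.46 and 0.44, and those from control siRNA were 0.34, 0.22, 0.26 and 0.44. The chemokine receptor gene CXCR4 differed by 0.60 and the class II gene HLA-DOB by 0.85, against 0.18 and 0.53 from control siRNA. The isocitrate dehydrogenase genes IDH1 and IDH2, which yield NADPH, differed by 0.52 and 0.87, and CASP6 by 0.70. From control siRNA these genes differed by 0.25, 0.27 and 0.01. Among the list genes lower in untreated cells were the activation markers CD83 (-0.40) and CD86 (-0.50) and SLAMF7 (-0.58). So were the inhibitory Fc receptor gene FCGR2B (-0.60) and the secretory pathway gene FKBP11 (-0.81). From control siRNA these genes differed by -0.21, -0.30, -0.33, -0.22 and -0.59. None of the differences from control siRNA, from CCNG2 to FKBP11, passed the test. Outside the lists, TMSB15A and YPEL1 were higher in untreated cells, with log2 differences of 1.85 and 1.45, against 0.19 and 0.48 from control siRNA. TFPI2, a protease inhibitor gene, was lower, with a log2 difference of -1.26 at an adjusted p of 0.0497 from limma. Its log2 difference from control siRNA was -1.41 (limma adjusted p = 0.0739). In untreated cells its values, 76.8, 86.5, 256 and 203, were widely spread. The calls for CD24, TFDP2, IDH2, CASP6, CCNG2, CXCR4, HLA-DOB, FKBP11 and SLAMF7 held in 22 of 22 alternative settings. Those for FCGR2B, CD86, IDH1, E2F1, CD83, MKI67 and TFPI2 held in 20, 18, 13, 10, 8, 8 and 8. They were lost without untreated replicate 4 for FCGR2B and without untreated replicate 1 or 2 for CD86. For the other 5 they were lost without each of several arrays of the groups, among them untreated replicate 1 in every case, with adjusted p values of up to 0.0829, 0.107, 0.133, 0.142 and 0.202.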

How the data were processed

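RNA of Granta 519 cells had been labelled and hybridized by the authors to Affymetrix Human Gene 1.0 ST arrays. The deposited values are PLIER signal intensities on a linear scale, 1 per probe set, computed in Affymetrix Expression Console 1.1 with background correction by probes of matched GC content and scaling to a global median. Both deposited value tables hold the same numbers. Columns with the authors' own ratios and p-values were not used. A genome build was not given in the sources used here.

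Gene symbols came from the platform annotation and were found by gene ID in RefSeq's gene table for 19429 of 19460 probe sets. Where a gene had several probe sets, that with the highest mean over the 12 arrays was used. The members and lists were chosen with earlier results of these data known.

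For tests, log2(value + 16) was fitted with limma 3.58.1 in R 4.3.3 over the 3 groups together, which share 1 estimate of the spread. P-values were adjusted by Benjamini-Hochberg over all 33297 probe sets, with 0.05 as threshold, and the code was tested on simulated data. Levels of untreated cells alone carry no test. Since each group is 4 samples of a single cell line, p-values measure only the spread between these samples, which may be technical. The number of arrays limits the precision. Other scalings, pseudocounts, filters, designs and leaving out each array were tried.

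Named genes were the 5 markers of the line, the 20 genes with the highest mean signal, the 10 that varied most and members of lists (all of short lists, otherwise the highest and lowest). So were all list genes that passed the test against control siRNA and the 5 largest differences each way. Of the list genes that passed it against SOX11 siRNA, only a part was named. CCND2, CCNE1, CCNE2, CD3D, HACD4, HK2, ROR1, RPL22, SLC2A1, SOX4, SYK, VCAM1 and the genes named only for amino acid response or chaperones were chosen after their values were seen.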

Additional observations from a re-analysis of the deposited data

Results flagged for a closer look

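In untreated cells, 17 of the 233 genes whose signals are given had 1 array apart from the other 3, with a gap past Dixon's 95% critical value for 4 arrays, which is 7.3%. Chance alone flags about 1 gene in 20.

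Replicate 2 was the low array for 7 genes, most of them with high signals. It gave 6698 for B2M against 7558 to 7694 on the others, 5671 for HLA-DPA1 against 6572 to 6615 and 6563 for the ribosomal protein gene RPL4 against 7315 to 7439. It gave 3569 for MDH2 against 3966 to 4010 and 4681 for ODC1 against 5105 to 5145. It gave 463 for BCL2A1 against 552 to 562 and 221 for RPL22 against 265.5 to 268. For KLHL9 it was the high array, with 43.9 against 36.2 to 37.1.

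Replicate 1 was high for 4 genes, CDH5 with 564 against 492 to 503, HK2 with 777 against 686.5 to 690.2, IDH2 with 1746 against 1532 to 1552 and MZB1 with 1117 against 955 to 972.5. It was low for SOX30, with 15.2 against 22.6 to 23.9. Replicate 3 was high for CD83, with 504 against 451 to 459.5, and for CDKN3, with 1051 against 929.9 to 941. It was low for SELP, with 12.6 against 19.5 to 20.8. Replicate 4 was high for CASP5, with 85.5 against 71.0 to 73.2.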

How the results depend on the processing

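The count of genes above the reference, 8892, was 4367 with the 99th percentile of the reference genes, between 8852 and 11218 under the other definitions and 8921 to 9085 when 1 untreated array was left out. The median SD between untreated arrays, 0.12, was 0.13 after centring, 0.16 with log2(value + 1), 0.099 over probe sets above the median and 0.102 to 0.12 without 1 array. Counts against control siRNA, 72 higher and 57 lower, became 292 and 352 after quantile normalization, 56 and 126 after centring, 29 and 33 with log2(value + 1), 158 and 90 over probe sets above the median, 183 and 97 over those with 1 symbol, 135 and 82 with the 8 arrays compared, and 17 and 23 with the methods' analysis of variance after Benjamini-Hochberg. Counts against SOX11 siRNA, 532 and 268, became 1111 and 1263, 383 and 938, and 314 and 149 under the first 3 of these. Lower calls were 452 over probe sets above the median. The counts were 315 and 130 with the 8 arrays compared and 289 and 144 with the analysis of variance.

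Leaving out 1 array gave 29 to 142 higher and 33 to 90 lower against control siRNA, and 245 to 645 higher and 109 to 782 lower against SOX11 siRNA. The counts 142, 90 and 782 came without SOX11 siRNA replicate 3, which left 397 higher against SOX11 siRNA. Without any single untreated array the higher calls against control siRNA were 32 to 46 and against SOX11 siRNA 245 to 333. Deviations of samples with the same replicate number correlated from -0.315 to 0.446. Between control siRNA and SOX11 siRNA the values were 0.133, 0.0422, 0.291 and 0.331 for numbers 1 to 4. Samples with unlike numbers were not set beside them, so whether the numbers pair the samples was not tested. With the replicate number as a block the counts were 72 and 49, and 500 and 211, and with quantile normalization as well 288 and 340, and 1146 and 1275. The causes of these shifts were not tested.

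Of 59 fold changes past the threshold among the genes named, PRF1 and KRT18 not included, 25 lost it in at least 1 alternative and none reversed. Mean signals moved by more than 1 SD for 37 genes after scaling to the same median and for 14 after quantile normalization.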
